A study of Mus musculus with 13 samples.

Results

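The vesicular glutamate transporter genes Slc17a6, Slc17a7 and Slc17a8 (VGLUT2, VGLUT1 and VGLUT3 proteins) were followed in single cells of the mouse claustrum. They were chosen by gene symbol, and rows of counts were analysed for 2 of the 3 genes, Slc17a6 and Slc17a7. Slc17a8 was not analysed here. Levels were read in all cells with at least 1 count of Snap25, the gene of a presynaptic fusion protein that marks neurons, which were 1085 of 1112 harvested cells. Cells were taken by hand from microdissected claustrum of 4 mature male C57BL/6 mice and sequenced from the 3′ end in 13 plates. In the blindly sampled mouse, a retrograde virus expressing GFP from the anterior cingulate cortex guided the dissection, and 254 cells were picked without regard to GFP (3 plates). In the 3 projection mice, retrobeads of different colours had been injected into the retrosplenial cortex (RSC) and the lateral entorhinal cortex (LEC), and 281 RSC, 299 LEC and 251 Unlabeled cells held Snap25 (10 plates). A bead label marks cells that took up tracer from that target, and an Unlabeled cell may still project there. No group carried a gene deletion.

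Vesicular glutamate transporters load glutamate into synaptic vesicles, driven by the electrochemical gradient that the vesicular proton pump builds. VGLUT1 is the usual form in excitatory neurons of the neocortex and hippocampus, VGLUT2 prevails in thalamus and other subcortical regions, and VGLUT3 occurs mainly in neurons that also release another transmitter. A gene for either of the first 2 proteins is a standard sign of a glutamatergic neuron, and both can be found in the same cell.

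Cells were split by Synpr, a claustrum core marker whose product, synaptoporin, sits in the membrane of synaptic vesicles. A cell with at least 200 CPM (counts per 1000000 counts of the cell) of Synpr was called Synpr-high (456 cells), and the others Synpr-lower (629 cells). This is a range of 1 gene and not a cell type. Few cells lay near the limit, with 20 cells at 100 to 200 CPM of Synpr and 20 cells at 200 to 500 CPM. Of these, 1 cell below and 1 cell above the limit held Slc17a6. Cells of the blindly sampled mouse were shallower, with a median of 25461 counts, than those of the projection mice, with medians of 130788 to 151686 counts. Counts were taken as reads, the unit in which the Methods give the totals of cells, so several may come from 1 molecule and the intervals below cover counting error only. Well barcodes were reused between plates, with 343 distinct barcodes among 856 harvested cells of the projection mice, and none was shared among the 256 harvested cells of the blindly sampled mouse. Markers of cell type were then read. Slc17a7 was counted in 1011 of the 1085 cells, while 8 cells held both Gad1 and Gad2, the glutamate decarboxylases of inhibitory neurons.

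The promoter windows of both genes are shown because their transcripts were distributed differently between the cells described below. Each window of 300 bases spans a RefSeq transcript start and lies mostly upstream of it (build GRCm38.p6, forward strand), at chr7:45163671-45163970 for Slc17a7 and at chr7:51621580-51621879 and chr7:51624387-51624686 for the upstream and downstream starts of Slc17a6. The counts come from transcript 3′ ends and do not tell the Slc17a6 starts apart. Capitals mark matches, on either strand, to a GC box (GGGCGG) or an E-box (CAGATG).
Slc17a7: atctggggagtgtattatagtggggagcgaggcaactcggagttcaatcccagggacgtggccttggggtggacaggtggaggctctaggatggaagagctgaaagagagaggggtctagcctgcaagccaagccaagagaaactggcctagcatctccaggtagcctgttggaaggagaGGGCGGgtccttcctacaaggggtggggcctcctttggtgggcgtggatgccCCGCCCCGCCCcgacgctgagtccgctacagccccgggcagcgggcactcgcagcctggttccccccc
Slc17a6 upstream: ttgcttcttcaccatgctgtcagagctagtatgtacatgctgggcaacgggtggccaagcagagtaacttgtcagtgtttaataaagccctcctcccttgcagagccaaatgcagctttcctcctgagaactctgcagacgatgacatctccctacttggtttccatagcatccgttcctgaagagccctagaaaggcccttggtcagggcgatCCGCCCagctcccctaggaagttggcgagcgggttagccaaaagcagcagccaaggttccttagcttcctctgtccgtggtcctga
Slc17a6 downstream: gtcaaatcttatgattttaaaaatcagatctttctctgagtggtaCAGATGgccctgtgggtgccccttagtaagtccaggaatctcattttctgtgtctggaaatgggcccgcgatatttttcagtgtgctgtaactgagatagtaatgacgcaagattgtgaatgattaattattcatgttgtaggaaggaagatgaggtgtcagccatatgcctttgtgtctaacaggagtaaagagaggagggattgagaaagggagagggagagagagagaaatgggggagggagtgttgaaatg
The Slc17a7 window held 3 GC boxes, of which the last 2 overlap by 1 base, and the upstream Slc17a6 window held 1. The GC box occurred in 35.7% of 32851 promoter windows of the same length. The E-box was matched once, in the downstream Slc17a6 window, and occurred in 17.2% of windows. The NBRE (AAAGGTCA), which binds NR4A factors such as the product of the core marker Nr4a2, the cyclic AMP response element (TGACGTCA) and the TATA box (TATAAA) had no match in these windows and occurred in 1.51%, 1.79% and 13.6% of all windows. The share of G and C was 63.7% in the Slc17a7 window, 53.7% in the upstream and 43.0% in the downstream Slc17a6 window, against a median of 52.7%. A match is a run of letters and not evidence of binding.

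Slc17a6 was high in Synpr-high cells and near 0 in the others. Summed over the Synpr-high cells of each mouse, its level was 65.9 CPM in the blindly sampled mouse and 74.7, 66.5 and 101.0 CPM in projection mice 1, 2 and 3. In Synpr-lower cells it was 0, 2.02, 3.11 and 0.221 CPM in the same order. The groups did not overlap, and Synpr-high cells were higher in 4 of 4 mice. The means were 77.0 ± 16.5 CPM and 1.34 ± 1.49 CPM (SD, n = 4 mice). Within mice, the level in Synpr-high cells was 36.9, 21.4 and 457 times that in Synpr-lower cells in projection mice 1, 2 and 3. In the blindly sampled mouse, 134 Synpr-lower cells held no count of Slc17a6 in a total of 4052106. The Slc17a6 level in Synpr-high cells of that mouse was 89.0 times a floor of 3 counts (0.740 CPM). This floor covers the error of independent counts only and is not a firm lower bound. With counts summed per mouse and class, the log2 fold change was 5.73 ± 0.72 (SE, adjusted p = 0.00086, quasi-likelihood test of edgeR, Benjamini-Hochberg adjusted across 13680 genes). In this comparison 8.6% of the genes tested passed the threshold of 0.05, with 601 genes higher (4.39%) and 576 lower (4.21%) in Synpr-high cells. With the mouse as a block, 2026 genes passed. Of the 601 higher genes, 33 had a larger fold change than Slc17a6.

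Slc17a7 differed little between the classes. Its level in Synpr-high cells was 127.9 CPM in the blindly sampled mouse and 121.3, 159.6 and 117.8 CPM in projection mice 1, 2 and 3, and in Synpr-lower cells it was 162.4, 159.9, 157.2 and 125.6 CPM. The ranges overlapped, with means of 131.6 ± 19.1 and 151.3 ± 17.2 CPM (SD, n = 4 mice), and Synpr-high cells were the lower in 3 of 4 mice. The log2 fold change was -0.15 ± 0.15 (SE, adjusted p = 0.67, edgeR), and its interval of 1.96 SE ran from -0.44 to 0.13. The largest difference within a mouse was in projection mouse 1, where Synpr-high cells were at 0.758 of the level of Synpr-lower cells. Snap25, by comparison, was at 4686 ± 955 CPM in Synpr-high and 3900 ± 904 CPM in Synpr-lower cells (SD, n = 4 mice), with an adjusted p of 0.48 (edgeR).

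**Figure D1:**
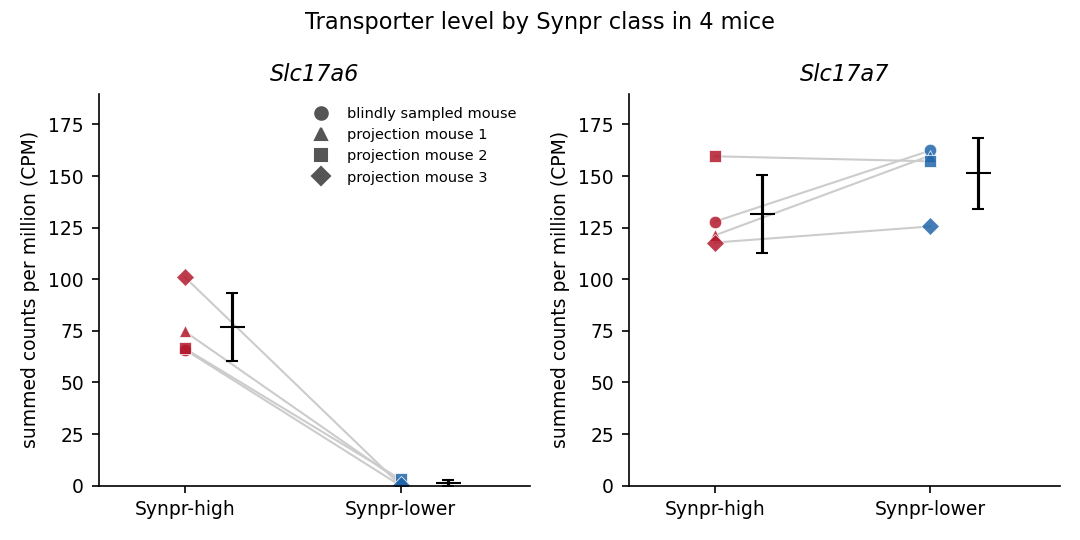
Summed CPM (y axes) of Slc17a6 (left) and Slc17a7 (right) in Synpr-high and Synpr-lower cells (x axes), with 1 symbol per mouse, grey lines joining the classes of a mouse, and bars at the mean ± SD of 4 mice. Slc17a6 fell from 65.9 to 101.0 CPM in Synpr-high cells to at most 3.11 CPM in Synpr-lower cells, while the Slc17a7 ranges overlapped.

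Together the transcripts were more abundant in Synpr-high cells, and Slc17a6 made up much of that sum there. The summed level of both genes was 208.7 ± 16.2 CPM in Synpr-high cells (193.8 to 226.0 CPM) and 152.6 ± 17.9 CPM in Synpr-lower cells (125.8 to 162.4 CPM; SD, n = 4 mice). Slc17a6 gave 36.9 ± 7.12% of the transporter counts in Synpr-high cells, from 29.4% to 46.2%, and 0.842 ± 0.918% in Synpr-lower cells, from 0% to 1.94% (SD, n = 4 mice). The difference of 36.1 percentage points had the same sign in 4 of 4 mice and p = 0.0286, the smallest value that a two-sided exact permutation test of 4 against 4 can give. Both classes come from the same mice, and the exact permutation test within mice gave p = 0.125, the smallest that 4 pairs allow, for this part and for the Slc17a6 and joint shares below, so none of them passes when paired. Genes were counted from the 3′ end, so the part compares classes and does not say which protein is the more abundant.

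Single cells were compared after thinning each to 20000 counts, which left out 150 shallower cells, 79 of them from the blindly sampled mouse. Slc17a6 was then detected in 40.9%, 44.3%, 40.2% and 48.7% of Synpr-high cells in the blindly sampled mouse and projection mice 1, 2 and 3. In Synpr-lower cells it was detected in 0%, 2.31%, 2.36% and 0.562%. The means were 43.5 ± 3.86% and 1.31 ± 1.21% (SD, n = 4 mice, exact permutation p = 0.0286, two-sided, the smallest possible). Before thinning the means were 56.5% and 2.91%. Slc17a7 was detected in 89.2 ± 2.94% of Synpr-high and 93.2 ± 4.62% of Synpr-lower cells (exact permutation p = 0.20, two-sided), and in 95.9% and 90.9% before thinning. In the same cells of at least 20000 counts but without thinning, the Slc17a7 shares were 98.1% and 99.7%, so the order was reversed only where the shallower cells were included. Over the 4 share tests, which include those of the transporter counts and of both genes together, the Benjamini-Hochberg adjusted p of the unpaired exact permutation tests was 0.038 for each but that of Slc17a7, at 0.20.

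The cells with Gad1 and Gad2 were read at full depth, so their counts are not a background for the shares of thinned cells. Slc17a6 had no count in 8 of 8 such cells, which allows a share of up to 37.5%, and Slc17a7 had a single count in 4 of 8. Their median total was 194416 counts, against 122797 counts in the cells that held Slc17a7. All 8 came from projection mice, since these genes were not listed for the blindly sampled mouse, and 7 of 8 were Synpr-high. Without them, Slc17a6 was detected in 44.3 ± 4.13% of thinned Synpr-high cells and Slc17a7 in 90.5 ± 2.55% (SD, n = 4 mice).

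Most Slc17a6 cells also held Slc17a7. In thinned Synpr-high cells both genes were detected in 36.4%, 42.0%, 35.6% and 40.7% of cells in the blindly sampled mouse and projection mice 1, 2 and 3, against 0% to 2.36% of Synpr-lower cells. The means were 38.7 ± 3.16% and 1.17 ± 1.35% (SD, n = 4 mice, exact permutation p = 0.0286, two-sided, the smallest possible). Slc17a7 alone was detected in 46.0% to 53.4% of Synpr-high cells per mouse, and Slc17a6 alone in 2.27% to 8.0%. The share with both genes was close to the product of the separate shares in each mouse, with 36.7%, 41.3%, 35.1% and 42.2% for the product in the same order. At full depth, 253 of 456 Synpr-high cells held both genes, 185 held Slc17a7 only, 6 held Slc17a6 only and 12 held neither. All 6 cells with Slc17a6 only were from the shallower blindly sampled mouse. Of 629 Synpr-lower cells, 554 held Slc17a7 only, 19 held both, none held Slc17a6 only, and 56 held neither.

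**Figure D2:**
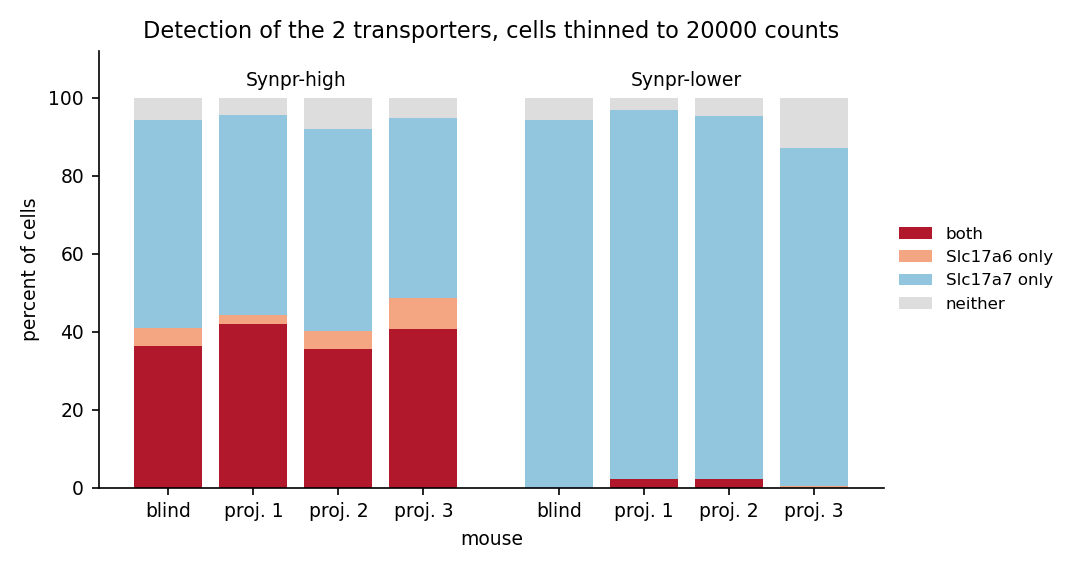
Percent of cells (y axis) with both genes, Slc17a6 only, Slc17a7 only or neither, in cells thinned to 20000 counts, with a stacked bar for each mouse and Synpr class (x axis). Both genes were seen in 35.6% to 42.0% of Synpr-high cells and in at most 2.36% of Synpr-lower cells.

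Within the Synpr-high class the genes were spread over cells in different ways. In 311 Synpr-high cells of the projection mice, thinned to 50000 counts, Slc17a6 had no count in 136 cells (43.7%), 1 to 2 counts in 38 cells, 3 to 9 counts in 77 cells and 10 or more counts in 60 cells. Slc17a7 had no count in 7 cells (2.25%), 1 to 2 counts in 24 cells, 3 to 9 counts in 212 cells and 10 or more counts in 68 cells. Among 2469 genes with a mean of 50 to 150 CPM in these cells, the median share of cells with a count was 68.2% (quartiles, 59.2% and 78.1%). Slc17a6 was counted in 56.3% of the cells at a mean of 98.0 CPM, and 454 of the genes had a lower share. Slc17a7 was counted in 97.7% at a mean of 139.9 CPM, near the upper end of this set, and 2459 of the genes had a lower share. The set was not matched to the level of either gene, on which the share and the variance also depend. The variance over the mean of the counts was 10.9 for Slc17a6 and 2.82 for Slc17a7, against a median of 5.91 for the 2469 genes. These are descriptions of cells, which are not replicates, and the share of silent cells cannot be separated from failed capture.

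**Figure D3:**
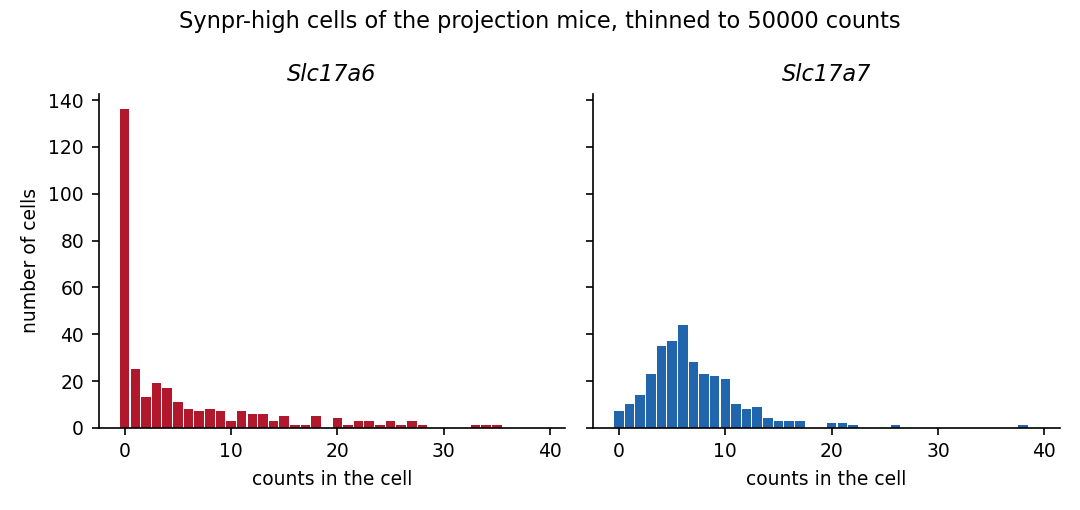
Number of cells (y axis) by counts in the cell (x axes) for Slc17a6 (left) and Slc17a7 (right) in 311 Synpr-high cells of the projection mice thinned to 50000 counts. Slc17a6 had no count in 136 cells and a long tail, while Slc17a7 had 3 to 9 counts in 212 cells.

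Over 4 groups of 114 Synpr-high cells ordered by Synpr, the first at 200 to 1296 CPM and the last at 2155 to 3589 CPM, Slc17a6 was detected in 42.6%, 41.0%, 47.6% and 46.2% of thinned cells, and Slc17a7 in 85.1%, 93.3%, 89.3% and 87.5%. The other core markers were read in Synpr-high cells with and without Slc17a6 after thinning, with levels from the unthinned counts of these cells. Some cells without Slc17a6 after thinning held it at full depth. It was detected in a mean of 56.9% of the same cells without thinning, against 43.5% with it. Nr4a2, which encodes a nuclear receptor, was higher in cells with Slc17a6 in 4 of 4 mice, at 1601 ± 149 against 1439 ± 107 CPM, as was Snap25, at 5034 ± 921 against 4425 ± 916 CPM. Gnb4, a G protein subunit gene and claustrum marker, was at 1240 ± 213 CPM in cells with Slc17a6 and 1150 ± 208 CPM in cells without, and was higher with Slc17a6 in 3 of 4 mice. Lxn, which encodes a carboxypeptidase inhibitor, was at 1483 ± 198 and 1414 ± 265 CPM, higher in 3 of 4 mice. Gfra1, a neurotrophic factor receptor gene, was at 188 ± 54.5 and 216 ± 21.0 CPM, lower with Slc17a6 in projection mice 1 and 2 (157 against 218 and 134 against 221 CPM) and higher in the other mice. Slc17a7 itself was at 134.9 ± 24.0 and 131.0 ± 16.4 CPM, higher in 2 of 4 mice (SD, n = 4 mice). These differences were not tested, and 4 pairs cannot give a two-sided permutation p below 0.125.

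**Figure D4:**
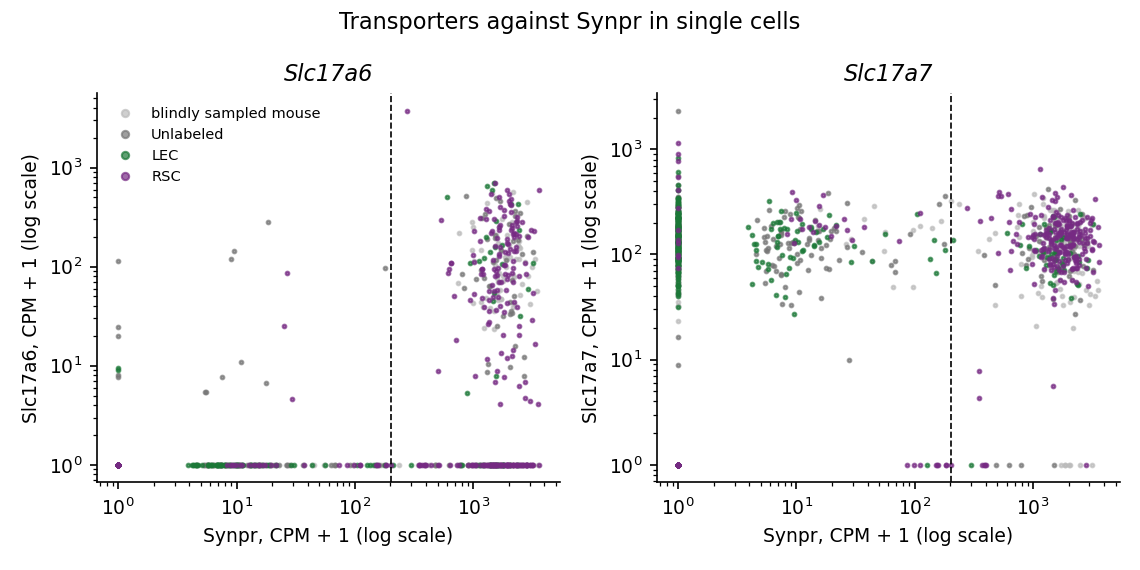
Slc17a6 (left) and Slc17a7 (right) in CPM + 1 (y axes, log scale) against Synpr in CPM + 1 (x axes, log scale), with a point for each of 1085 cells coloured by label and a dashed line at 200 CPM of Synpr. Slc17a6 was above 0 in 259 of 456 cells right of the line and in 19 of 629 cells left of it, while Slc17a7 was above 0 on both sides.

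The few Synpr-lower cells with Slc17a6 were mostly Unlabeled. Of the 19 cells, 11 held a single count, 2 held 2 to 5 counts and 6 held 6 or more, and those 6 cells gave 92 of the 109 counts (84.4%). Of the 6 cells, 5 were Unlabeled and the other was an RSC cell. Fezf2, which encodes a transcription factor of deep layer cortical neurons, was counted in 5 of the 6 cells, with 5 to 53 counts, and Pcp4, a calmodulin-binding protein gene of deep cortical layers, in all 6 with 29 to 378 counts. Slc30a3, the vesicular zinc transporter gene that marks the claustrum shell, had no count in 5 of the 6. The other shell markers were counted, Spon1 in all 6 cells with 13 to 81 counts and Nnat in 4 of the 6 with 37 to 137 counts. Of other layer 6 markers, Ctgf had no count in 4 of the 6, while Foxp2 and Tle4 were each counted in 4 of the 6. Sla, a layer 6a marker, had no count in some of the 6 and up to 5 counts in the others. Over all Synpr-lower cells, Fezf2 was at 31.0 ± 9.24, Pcp4 at 707 ± 403, Spon1 at 215 ± 82.9 and Nnat at 804 ± 451 CPM (SD, n = 4 mice). A count of Pcp4, Spon1 or Nnat therefore does not set the 6 cells apart from other Synpr-lower cells. Foxp2 was at 15.5 ± 3.76 and Tle4 at 23.9 ± 11.4 CPM over all Synpr-lower cells (SD, n = 4 mice). The share of other Synpr-lower cells with Fezf2, Foxp2 or Tle4 is not given, and whether these genes set the 6 cells apart was not tested. Synpr-lower cells with at least 50 CPM of Slc30a3 held 0.241 ± 0.337 CPM of Slc17a6, and the other Synpr-lower cells without Gad1 and Gad2 held 3.41 ± 4.58 CPM (SD, n = 4 mice). Slc17a7 was at 152.4 ± 20.6 and 150.9 ± 13.7 CPM in the same cells. The ranges of these groups overlapped for both genes.

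The projection labels address whether the transporters differ between cells that project to RSC and to LEC. Slc17a6 was higher in RSC cells. Its level in all cells of a label was 70.9, 74.6 and 82.8 CPM for RSC, 17.9, 12.3 and 23.3 CPM for LEC and 22.8, 16.6 and 47.6 CPM for Unlabeled cells in projection mice 1, 2 and 3. RSC cells were above the others in 3 of 3 mice, and the LEC and Unlabeled ranges overlapped. The means were 76.1 ± 6.12, 17.8 ± 5.52 and 29.0 ± 16.4 CPM (SD, n = 3 mice), and the blindly sampled mouse, with no projection label, had 31.0 CPM. The log2 fold change of RSC over LEC was 2.12 ± 0.36 (SE, adjusted p = 0.0090, edgeR over 14028 genes), where 3.98% of the genes tested passed, 264 higher (1.88%) and 295 lower (2.1%). Of the 264 higher genes, 51 had a larger fold change. Leaving out projection mouse 1 or 2 gave adjusted p-values of 0.069 and 0.076 (edgeR) with log2 fold changes of 2.18 and 1.93, and over 14 alternatives the adjusted p ran from 3.7e-08 to 0.076. RSC over Unlabeled was 1.42 ± 0.35 (SE, adjusted p = 0.080, edgeR), where 1.58% of the genes passed, and the mouse as a block gave 1.56 with adjusted p = 0.029 (range over 14 alternatives, 0.00135 to 0.348). LEC over Unlabeled was -0.70 ± 0.35 (SE, adjusted p = 0.69, edgeR). In that comparison edgeR called 0 genes, with 1088 genes at an unadjusted p under 0.05, and DESeq2 called 143. With the mouse as a block, edgeR called 2.

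Slc17a7 did not differ detectably between labels. Its level was 129.0, 199.7 and 128.9 CPM in RSC, 143.6, 161.1 and 113.3 CPM in LEC and 153.1, 134.9 and 123.6 CPM in Unlabeled cells of projection mice 1, 2 and 3. The ranges overlapped, and the log2 fold change of RSC over LEC was 0.16 ± 0.20 (SE, adjusted p = 0.79, edgeR), with an interval of 1.96 SE from -0.22 to 0.55. RSC over Unlabeled was 0.18 ± 0.20 and LEC over Unlabeled 0.019 ± 0.20 (SE, adjusted p = 0.80 and 0.998, edgeR). Slc17a6 gave 33.9 ± 6.11% of the transporter counts in RSC cells, 11.8 ± 5.03% in LEC cells and 17.3 ± 9.19% in Unlabeled cells (SD, n = 3 mice).

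Label and plate coincide in these mice, since each plate held cells of 1 label except plate 12, so label and plate cannot be told apart on the others. On plate 12, from projection mouse 3, Slc17a6 was at 57.0 CPM in 35 RSC cells and 25.8 CPM in 46 LEC cells, and Slc17a7 at 110.0 and 79.0 CPM. On the other plates of that mouse, Slc17a6 was at 97.9 CPM in RSC and 21.5 CPM in LEC cells. Of the 8 cells with Gad1 and Gad2, 4 were RSC cells and none was an LEC cell, and Gad1 and Gad2 passed the test for RSC over LEC (adjusted p = 0.035 and 0.048, edgeR). These cells held no Slc17a6, and without them the log2 fold change of Slc17a6 was 2.15 (adjusted p = 0.0081, edgeR). The summed inhibitory markers ranged from 6248 to 7367 CPM in RSC and from 4875 to 5820 CPM in LEC cells, where Gad1, Gad2, Dlx1 and Sst were at 0. Cck, a peptide gene also used by many excitatory neurons, gave most of this sum in both Synpr classes. It was at a mean of 5706 of 6317 CPM in Synpr-high and 4043 of 4588 CPM in Synpr-lower cells. The sum is therefore not a measure of inhibitory cells. The summed glial and vascular markers ranged from 32.1 to 769 CPM in RSC cells, where Aqp4 and Vtn were at 0, and from 87.9 to 330 CPM in LEC cells, where Pecam1 and Vtn were at 0, and their part in the result was not tested.

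The labels also differed in their share of Synpr-high cells. Of RSC cells, 67.1%, 71.3% and 89.9% were Synpr-high in projection mice 1, 2 and 3, against 21.7%, 13.1% and 12.9% of LEC cells and 22.6%, 30.0% and 32.2% of Unlabeled cells. Slc17a6 was therefore compared within the classes. In Synpr-high cells it was at 81.3, 92.8 and 87.7 CPM in RSC, 57.8, 68.6 and 141.9 CPM in LEC and 74.5, 36.6 and 121.7 CPM in Unlabeled cells of projection mice 1, 2 and 3. RSC was above LEC in 2 of 3 mice and the LEC range enclosed that of RSC. The log2 fold change of RSC over LEC was -0.047 ± 0.59 (SE, adjusted p = 1.0, edgeR over 12414 genes), and its interval of 1.96 SE, from -1.21 to 1.11, reaches past a 2-fold change in either direction. The LEC sums held 11 to 18 cells each. On plate 12, Slc17a6 was at 64.2 CPM in 29 RSC and 87.4 CPM in 11 LEC cells of the Synpr-high class. Thinned to 20000 counts, Slc17a6 was detected in 52.9%, 47.2% and 45.3% of Synpr-high RSC cells, 27.8%, 36.4% and 43.8% of LEC cells and 36.8%, 26.1% and 64.3% of Unlabeled cells in projection mice 1, 2 and 3. RSC was above LEC in 3 of 3 mice and the ranges did not overlap, over 11 to 18 LEC cells a mouse. The ranges came close in projection mouse 3, with 48 of 106 RSC and 7 of 16 LEC cells. The exact 95% intervals there were 35.6% to 55.2% and 19.8% to 70.1%, and those of RSC and LEC overlapped in each mouse. The difference was not tested, since an exact permutation test of 3 against 3 cannot give p below 0.10. Over all genes, edgeR called 0 genes within Synpr-high cells, with 509 at an unadjusted p under 0.05, and DESeq2 called 20.

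Slc17a7 within Synpr-high cells was at 124.0, 189.5 and 126.2 CPM in RSC and 102.1, 151.7 and 89.9 CPM in LEC cells of projection mice 1, 2 and 3. RSC was the higher in 3 of 3 mice, but the ranges overlapped and the log2 fold change was 0.35 ± 0.26 (SE, adjusted p = 1.0, edgeR). In Synpr-lower cells Slc17a7 was at 162.2, 237.3 and 175.4 CPM in RSC and 162.1, 163.2 and 117.9 CPM in LEC cells, a log2 fold change of 0.41 ± 0.26 (SE, adjusted p = 0.60, edgeR), where 0.201% of the genes passed. The RSC effect on Slc17a7 did not differ detectably between the classes (log2 difference, -0.064 ± 0.36, SE, adjusted p = 0.995, edgeR, 0.0725% of the genes called). Slc17a6 was counted 2 times in 253 Synpr-lower LEC cells, 13 times in 62 Synpr-lower RSC cells, of which 12 counts were in 2 cells of projection mouse 2, and 94 times in 180 Synpr-lower Unlabeled cells, and no fold change is given against 2 counts.

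**Figure D5:**
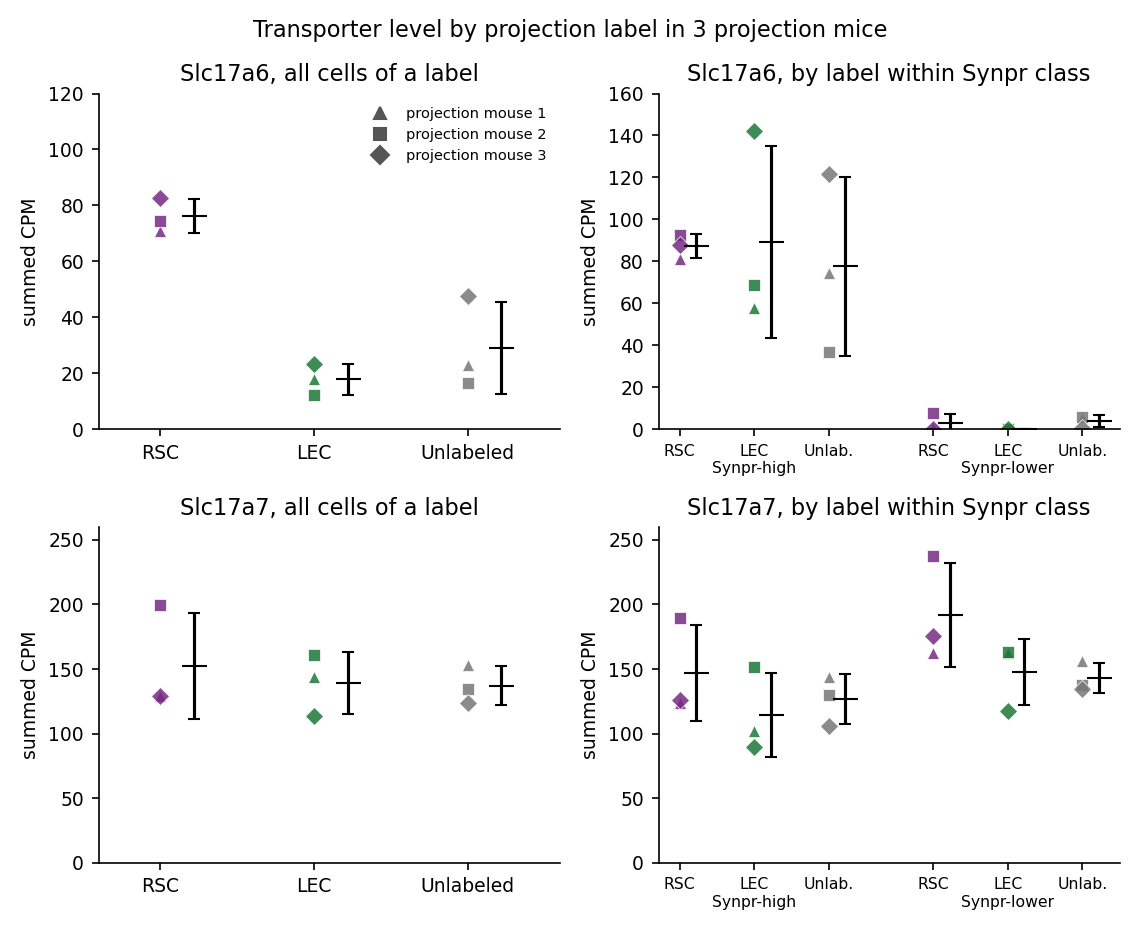
Summed CPM (y axes) of Slc17a6 (top) and Slc17a7 (bottom) by projection label, over all cells (left) and within each Synpr class (right), with 1 symbol per projection mouse and bars at the mean ± SD of 3 mice. RSC cells lay at 70.9 to 82.8 CPM of Slc17a6 over all cells, above LEC and Unlabeled cells, while within Synpr-high cells the 3 labels overlapped.

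Cells without Slc17a7 were mostly shallow. Of 74 such cells, 53 had fewer than 10000 counts and 38 had 2 or fewer counts of Snap25. Their median total was 6597 counts, against 122797 counts in the 1011 cells with Slc17a7. Of the 74, 34 were RSC, 13 LEC and 11 Unlabeled cells, and 16 came from the blindly sampled mouse. Synpr-lower RSC cells had a median of 13805 counts, against 148251 counts in Synpr-lower LEC and 134060 counts in Unlabeled cells, and Slc17a7 was counted in 44.4%, 60.9% and 66.7% of them in projection mice 1, 2 and 3. Only 4 of the 74 cells held Gad1 and Gad2. Of 17 others with 10000 counts or more, 5 held Slc17a6, with 12 counts in all. The summed glial and vascular marker level of these 17 cells was 591 CPM, against 221 CPM in cells with Slc17a7. It was 199 CPM over all 74 cells without Slc17a7 and 89.7 CPM in the 53 with fewer than 10000 counts. By label, it was 437 CPM in Unlabeled, 51.1 CPM in RSC and 28.2 CPM in LEC cells without Slc17a7, and 11.2 CPM in the blindly sampled mouse. Of the 11 Unlabeled cells, 7 had fewer than 10000 counts and 3 held Gad1 and Gad2. Most glial and vascular counts of the 17 cells thus came from the remaining Unlabeled cell, and their sum does not describe the 17 cells as a group. The summed inhibitory marker level of the 17 cells was 3349 CPM, against 5497 CPM in cells with Slc17a7. Cck gave most of this sum in both Synpr classes, and its part in the 17 cells is not reported here.

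The other genes of glutamate handling were read against the 8.6% of all genes called between the Synpr classes. At that share, lists of 12 and 5 genes can hold no called gene without standing apart from the other genes. None of 12 tested genes of glutamate synthesis and supply passed the test (median log2 fold change, 0.0090, against -0.0002 over all genes tested). Got1, which encodes a cytosolic aspartate aminotransferase, was at 482 ± 5.48 CPM in Synpr-high and 559 ± 16.5 CPM in Synpr-lower cells (SD, n = 4 mice, adjusted p = 0.27, edgeR). None of 5 plasma membrane glutamate transporter genes passed (median, -0.41). Slc1a1, the neuronal carrier, was at 45.4 ± 12.4 and 79.5 ± 20.2 CPM (log2 fold change, -0.76, lower in 4 of 4 mice, adjusted p = 0.061, edgeR), and Slc1a2, the main glial carrier, at 145.6 ± 13.2 and 197.6 ± 118.8 CPM. Slc1a2 was higher in RSC than in LEC cells (log2 fold change, 1.5, adjusted p = 0.031, edgeR). The 1 other SLC17 gene with enough counts, Slc17a5, which encodes the lysosomal sialic acid carrier, was at 64.2 ± 4.82 and 65.7 ± 18.6 CPM (adjusted p = 0.99, edgeR).

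Of 22 genes for the vesicular proton pump and counter-ion transport, 2 were higher and 1 was lower in Synpr-high cells (median log2 fold change, 0.039). With 8.6% of all genes called, a list of 22 can hold this number of called genes without standing apart from the other genes. The pump subunit gene Atp6v1h rose to 478 ± 101 from 289 ± 66.0 CPM (adjusted p = 0.0499, edgeR), and Rogdi, whose product belongs to the pump's assembly factor, to 588 ± 46.0 from 442 ± 22.4 CPM (adjusted p = 0.0052, edgeR). The subunit gene Atp6v1b2 fell to 378 ± 29.3 from 520 ± 36.3 CPM (SD, n = 4 mice, adjusted p = 0.022, edgeR). The most abundant uncalled subunit genes, Atp6v1g2 and Atp6v1e1, had log2 fold changes of -0.26 and 0.23 (adjusted p = 0.096 and 0.17, edgeR). None of the 22 genes passed for RSC over LEC, where 3.98% of all genes passed, nor did any of the 12 synthesis genes or Slc17a5.

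Of 7 tested genes for other vesicular transporters and vesicle carriers, 2 were lower in Synpr-high cells, against 4.21% of all genes tested. Slc30a3 fell to 13.04 ± 6.13 from 247 ± 43.3 CPM, a log2 fold change of -4.21 ± 0.41 (SE, adjusted p = 0.00021, edgeR), and was also lower in RSC than in LEC cells (-2.53, adjusted p = 0.0061, edgeR). Sv2b, a synaptic vesicle glycoprotein gene, fell to 322 ± 30.6 from 432 ± 44.7 CPM (adjusted p = 0.030, edgeR), while Sv2a and Svop were at 497 and 552 CPM and at 255 and 322 CPM, with adjusted p-values of 0.79 and 0.23 (edgeR).

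Markers of cell types were read beside these results and the 8.6% of all genes called between the Synpr classes. None of the 6 excitatory markers, Slc17a7 included, passed between the Synpr classes, and the most abundant, Neurod6 and Nrn1, had log2 fold changes of -0.26 and -0.83 (adjusted p = 0.078 and 0.34, edgeR). All 5 core markers were higher in Synpr-high cells, Synpr by the way the cells were split, and Gfra1 and Lxn had log2 fold changes of 4.82 and 3.06. All 3 shell markers were lower, with Spon1, an extracellular matrix gene, and Nnat at -4.32 and -3.91. Of 6 layer 6 markers 4 were lower, with Fezf2 and Pcp4 at -5.72 and -5.16, and Tle4 and Ctgf did not pass (adjusted p = 0.19 and 0.15, edgeR). The core and shell lists come from work on these samples and are not independent evidence. Of 7 tested inhibitory markers, Sst and Cck were higher (log2 fold change, 6.24 and 0.54). Sst was at 122 ± 101 CPM in Synpr-high and 1.46 ± 2.36 CPM in Synpr-lower cells (SD, n = 4 mice). It was higher in only 3 of 4 mice, and its lowest level in Synpr-high cells was 0 CPM. Cck, a peptide gene also used by many excitatory neurons, stood at 5706 ± 653 and 4043 ± 141 CPM. Most of the summed inhibitory list was Cck. The list ranged from 4772 to 6867 CPM in Synpr-high and from 4267 to 5156 CPM in Synpr-lower cells, with none of its 10 genes at 0 in either. None of 4 tested glial and vascular markers passed. That list of 18 genes summed to 24.5 to 322 CPM in Synpr-high and 42.9 to 519 CPM in Synpr-lower cells. Aqp4 and Vtn were at 0 in Synpr-high cells, Pecam1 was at 0 in Synpr-lower cells, and the part of these markers in the class results was not tested. For RSC over LEC, where 1.88% of all genes were higher and 2.1% lower, 5 of 5 core markers were higher and 3 of 3 shell markers lower, 1 of 6 excitatory and 3 of 9 inhibitory markers were higher, and none of 6 layer 6 or 7 glial and vascular markers passed.

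The genes whose pattern over cells was most like that of Slc17a6 were Synpr, Prkcd, Car2, Cpne4 and Cux1, by the correlation of log2(CPM + 1) over cells within each mouse, averaged over 4 mice. The mean Pearson r was 0.58, 0.58, 0.58, 0.57 and 0.56, among 10117 genes detected in at least 10% of the 1085 cells. For Slc17a7, like genes were Pgrmc1, 4933407C03Rik, Dnm1 and Ywhaz, with r from 0.55 to 0.54. The r of Ywhaz ranged from 0.16 to 0.71 between mice. Cells of a mouse share libraries and differ in depth, and shallow cells are at 0 for many genes at the same time, so these values are descriptions. Between Slc17a6 and Slc17a7 within Synpr-high cells, r was -0.13 in the blindly sampled mouse and 0.25, 0.21 and 0.11 in projection mice 1, 2 and 3. The rank correlation (Spearman) was -0.062, 0.158, 0.074 and -0.042 in the same order, so the sign in projection mouse 3 depended on the measure.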

How the data were processed

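Cells of 4 mice had been sequenced in 13 plates. The authors deposited 2 tables of counts per gene and cell, not normalized, made by tagging reads to barcodes and molecular identifiers (UMIs) and aligning them with STAR (version not given in the sources used here), with tables of the animal and projection label of each cell. The labels name the build NCBIM37. The annotation and use of strand are not given in the sources used here. Whether UMIs were collapsed is not given in the sources used here, and counts were taken as reads, the unit the Methods use for totals. Spike-ins were left out. The tables share 16575 other genes, and a gene listed in only 1 table was taken as 0 in the other.

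The cells kept had at least 1 count of Snap25. The study also required Slc17a7, which was not required here. Counts were summed per mouse and group where at least 5 cells were present, and tested with edgeR 4.0.16 (TMM factors, filterByExpr, quasi-likelihood test, adjusted p under 0.05 by Benjamini and Hochberg) in R 4.3.3. Alternatives used DESeq2 1.42.0 and limma 3.58.1. Single values were tested over mice by exact permutation (scipy 1.17.1). Thinning drew 20000 counts from each cell without replacement, with a fixed seed. Levels are CPM without spike-ins. No doublet caller was run, since cells were picked by hand. With p-values over mice, the spread is that between animals.

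Groups were paired by animal. Deviations of log2 CPM from group means correlated across genes with a median of 0.17 between the Synpr classes of a mouse (range, 0.14 to 0.51), against -0.087 for different mice, and of 0.030 between its labels, against -0.0098. The mouse as a block was an alternative.

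The members, lists and tests were chosen with earlier results of these data known. Named genes were the members, Snap25, Synpr, Gad1, Gad2, Slc30a3 and, for each list, up to 3 called genes with the largest fold change between Synpr classes and 2 uncalled genes with the highest level. Likeness named the top 5 genes if r reached 0.3. Some genes that these rules name are not reported here. Genes of the cells discussed within a class (Gnb4, Fezf2, Pcp4, Spon1, Nnat, Ctgf, Foxp2, Tle4, Sla) were chosen after their values were seen. Motifs and promoter windows are from RefSeq (GRCm38.p6), matched by symbol for both members.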

Additional observations from a re-analysis of the deposited data

Results flagged for a closer look

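The Slc17a7 level of Synpr-lower cells was set apart in projection mouse 3, at 125.59 CPM against 157 CPM in the nearest of the other 3 mice. The summed level of both transporters in the same cells was likewise low there, at 125.81 CPM against 160 CPM in the nearest mouse, and rests on the same counts. These were 2 of 18 groups examined for a sample far from the others, a rule by which chance picks about 1 group in 20. The change of Slc17a7 between the classes had the same sign and missed the threshold without that mouse.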

How the results depend on the processing

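Slc17a6 stayed higher in Synpr-high cells and past the threshold under all 17 alternatives (log2 fold change, 4.67 to 6.55), and Slc17a7 stayed short of it under all 17 (-0.24 to -0.09). The number of genes called between the classes was 1177, 1794 with DESeq2, 2026 with the replicate block, 547 in cells without a projection label and 527 to 1542 when a mouse was left out, with 592, 644 and 527 without projection mouse 1, 2 or 3. For RSC over LEC, Slc17a6 stayed past the threshold under 12 of 14 alternatives, and ranged from 1.93 to 2.30 when a mouse was left out. Genes called numbered 559, 1156 with DESeq2 and 58 to 372 when a mouse was left out, with 372, 62 and 58 without projection mouse 1, 2 or 3. For RSC over Unlabeled, Slc17a6 passed the threshold with DESeq2 (1.43), no filter on low counts (1.43), the replicate block (1.56), mean CPM per cell in limma (1.73) and cells thinned to 20000 counts (1.46). Genes called there were 222, 658 with DESeq2, 482 after thinning, 129 without plate 12 and 0 to 38 when a mouse was left out, with 0 without projection mouse 2. Slc17a7 ranged there from -0.062 to 0.37 when a mouse was left out.

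For LEC over Unlabeled, genes called were 0, 143 with DESeq2, 14 with no filter, 2 with the replicate block and 52 after thinning. Slc17a7 turned to -0.030 with mean CPM per cell, -0.011 after thinning, -0.0034 without cells with Gad1 and Gad2, and ranged from -0.10 to 0.073 when a mouse was left out. Within Synpr-high cells, RSC over LEC for Slc17a6 turned to 0.0036 with the replicate block, 0.11 with mean CPM per cell and 0.064 at a Synpr limit of 100 CPM, and ranged from -0.26 to 0.46 when a mouse was left out. Genes called there were 0, 20 with DESeq2 and 7 with no filter. Within Synpr-lower cells they were 25, 288 with DESeq2, 71 with no filter, 919 with mean CPM per cell and 0 to 5 when a mouse was left out, and Slc17a7 turned to -0.046 with mean CPM per cell. For the difference of the RSC effect between classes they were 9, 108 with DESeq2, 26 with no filter, 16 with mean CPM per cell, 3 at a Synpr limit of 500 CPM and 0 to 2 when a mouse was left out. Slc17a7 turned there to 0.46 with mean CPM per cell and 0.13 at 500 CPM, and ranged from -0.22 to 0.052 when a mouse was left out. The cause of these changes was not tested.

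The Slc17a7 difference in detection turned from -4.00 to 0.34 percentage points after thinning to 10000 counts and 4.99 with no thinning, and was -1.59 with no thinning in the same cells of at least 20000 counts. With a mouse left out, 3 against 3 cannot give a p below 0.10. The differences then ranged from 40.3 to 43.7 points for Slc17a6 detection, 36.5 to 38.9 for both genes and 32.8 to 39.0 for the Slc17a6 part of transporter counts. The replicate block pairs sums of the same mouse, and of the edgeR calls for these 2 genes given above it changed only that of Slc17a6 for RSC over Unlabeled. With the replicate block as a permutation within mice, the differences of 42.2 points for Slc17a6 detection, 37.5 for both genes and 36.1 for the Slc17a6 part gave p = 0.125 (exact), the smallest possible. Fits of Slc17a6 for RSC over LEC within Synpr-lower cells rest on 2 LEC counts and are not used as fold changes. Slc17a6 missed the threshold there with edgeR (adjusted p = 0.095) and passed it with DESeq2 (0.00046) and with no filter (0.0067), and 12 of the 13 RSC counts came from projection mouse 2, without which the adjusted p was 0.66. The alternatives with cells of at least 10000 counts, without plate 12 and, for labels and shares, without cells with Gad1 and Gad2, and for shares the permutation within mice and the same cells without thinning, were chosen after seeing the data. Depth limits statements on cells without a count, most of all in the blindly sampled mouse.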

Other observations

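Plates of the blindly sampled mouse gave 37.8, 39.8 and 23.9 CPM of Slc17a6 and 125.0, 141.1 and 157.3 CPM of Slc17a7 over 85, 84 and 85 cells. The highest Slc17a6 value of any cell was 3715 CPM, in a Synpr-high RSC cell of projection mouse 2 with 7268 counts, where Slc17a7 was at 275 CPM.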
